A study of Danio rerio with 12 samples.

Results

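The B1 *sox* genes of zebrafish encode close relatives of SOX2, and 5 of them were measured on the arrays of this study under their own names: *sox19b* (also written *sox31*), *sox3*, *sox19a*, *sox2* and *sox1a*. The members were taken by name, as all probe sets that the platform annotation gives to 1 of these genes alone, which yielded 12 of the 15502 probe sets tested. There were 3 probe sets each for *sox3*, *sox2* and *sox1a*, 2 for *sox19b* and 1 for *sox19a*. *sox1b* was not analysed here. The samples were whole embryos of the TL strain, taken at the tailbud stage (TB) and at a pair of earlier stages, 30%E and 75%E, where the percentage is that of epiboly, the spreading of the blastoderm over the yolk. At each stage the quadruple knockdown (QKD) embryos had received 8 morpholinos (MOs, antisense oligonucleotides) that together target *sox19b*, *sox3*, *sox19a* and *sox2*, and they were set against wild-type (WT) embryos that had not been injected. Each of the 6 groups held 2 biological replicates, which made 12 Affymetrix arrays, and the labels give 100 embryos per sample.

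B1 SOX proteins are transcription factors that bind DNA through an HMG box and usually act with a partner factor on the neighbouring site, such as a POU protein. They are known from vertebrate embryos for their roles in pluripotent cells and in the neural ectoderm, where several members are active in the same cells. The members differ in when they are used: *sox1a* is a gene of the later neural phase, whereas the others act before it, and among these *sox19b* is the one with a maternal mRNA pool.

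The 8 MOs are printed here because they define the QKD embryos, 2 for each of the 4 targeted genes. They are written 5′ to 3′, and CAT, the reverse complement of an ATG triplet, is in capitals.
sox2-MO2: gagaggctgctgaagttaccttagc
sox2-MO3: gaaagtctaccccaccagccgtaaa
sox3-MO1: taCATtcttaaaagtggtgccaagc
sox3-MO2: gaagtcagtcaaaagttcagagagc
sox19a-MO1: gtaCATggctgccaacagaagttag
sox19a-MO2: aaaacgagagcgagccgtctgtaac
sox19b-MO1: gtaCATCATgccacttctcgctttg
sox19b-MO2: acgagcgagcctaatcaggtcaaac
Each MO has 25 bases, and the share of G and C lies between 40% and 52%. CAT occurs in 3 of the 8, in the first MO of *sox3*, *sox19a* and *sox19b*, and it was not checked here whether it faces the start codon. The longest run of bases that MOs against different genes share is gagcgagcc, 9 bases found in sox19a-MO2 and sox19b-MO2. The paper states that the MOs may also have stabilised the targeted mRNAs, which was not tested here. MOs of this kind block translation. The array signals of the 4 targeted genes therefore say nothing about how far their proteins were reduced. Among the genes analysed here, *sox1a* is the member that no MO was directed against. The control embryos were not injected, so the injection itself and the loss of B1 SOX cannot be told apart on these arrays.

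Signals are linear RMA intensities in arbitrary units, and a difference is a difference of mean log2 signals with its standard error (SE) from limma. A probe set counted as called when its p, adjusted after Benjamini and Hochberg over all 15502, was under 0.05. Within a gene the probe sets are named A, B and C from the brightest to the dimmest by mean log2 signal, and the plots give the array maker's identifier of each. On the 12 arrays, the lower quartile over all probe sets lay between 20.6 and 24.1 and their median between 73.5 and 76.6. The brightest probe sets of *sox3* and *sox19a* stood at the 99.2th and 98th percentile of mean log2 signal, those of *sox2* and *sox19b* at the 87.2th and 86.5th, and that of *sox1a* at the 41.7th. A pair of group means of a probe set are said to differ beyond their spread when the difference exceeds the half-width of its unadjusted 95% interval from limma. Levels of different probe sets are not compared further, since each binds its target in its own way. The RNA came from whole embryos, so that a change in the number of cells that express a gene and a change in the amount of RNA per cell cannot be told apart.

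The first comparison followed the members through the WT stages. Between 30%E and 75%E, *sox19b* was called lower on both probe sets and *sox3* on probe set A alone, and *sox2* was called higher on probe sets A and B. Between 75%E and TB, *sox1a* was called higher on probe sets B and C. At 75%E against 30%E, 2 of the 12 member probe sets were called higher and 3 lower, where 30.2% and 27.0% of all probe sets were called higher and lower. At TB against 75%E, 2 members were called higher and 0 lower in limma, with 14.1% and 13.7% of all probe sets. The shares of member probe sets called between WT stages were thus near or below those of all probe sets.

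**Figure D1:**
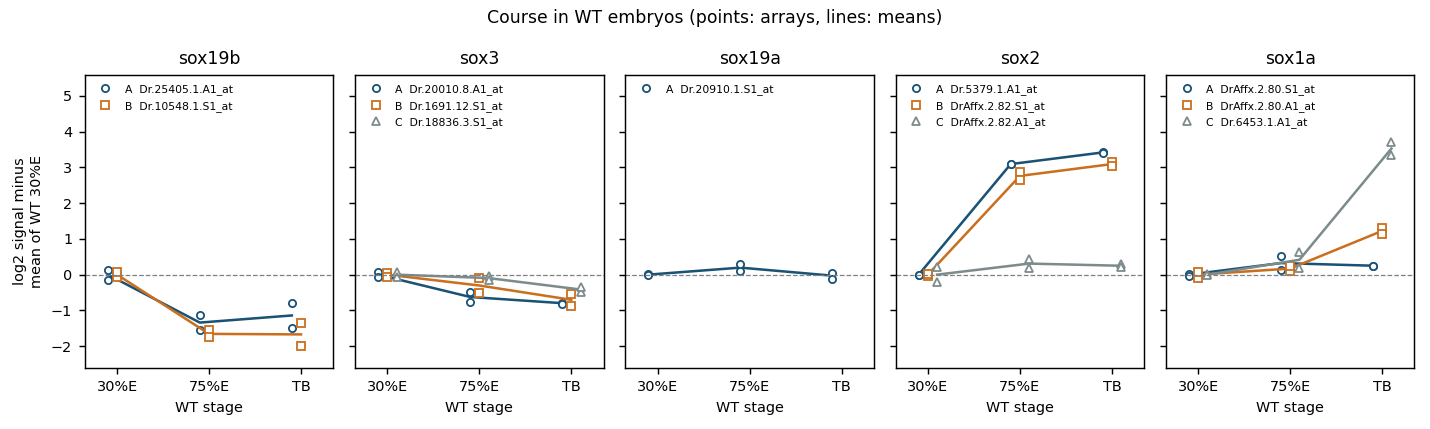
Log2 signal in WT embryos at 30%E, 75%E and TB, minus the mean of the WT 30%E arrays of the same probe set. Points are single arrays and lines join the means. Both *sox19b* probe sets fall after 30%E, 2 of the 3 *sox2* probe sets rise between 30%E and 75%E, the *sox19a* mean lies 0.20 above its start at 75%E, and 2 of the 3 *sox1a* probe sets rise at TB.

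The second comparison set QKD against WT embryos at each stage. All 4 targeted genes were called higher in QKD embryos at 75%E and TB, *sox2* was called lower at 30%E, and *sox1a* was called lower at TB on 1 probe set of 3. At 30%E, 4 of the 12 probe sets were called higher and 2 lower, beside 5.14% and 2.92% of all probe sets. At 75%E, 7 members were called higher and 0 lower in limma, beside 4.49% and 3.90% of all. At TB, 8 were called higher and 1 lower, beside 3.15% and 3.21% of all. The share of member probe sets called higher was above that of all probe sets at each stage. These higher calls came from 2, 4 and 4 genes at 30%E, 75%E and TB, and probe sets of the same gene are not independent.

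**Figure D2:**
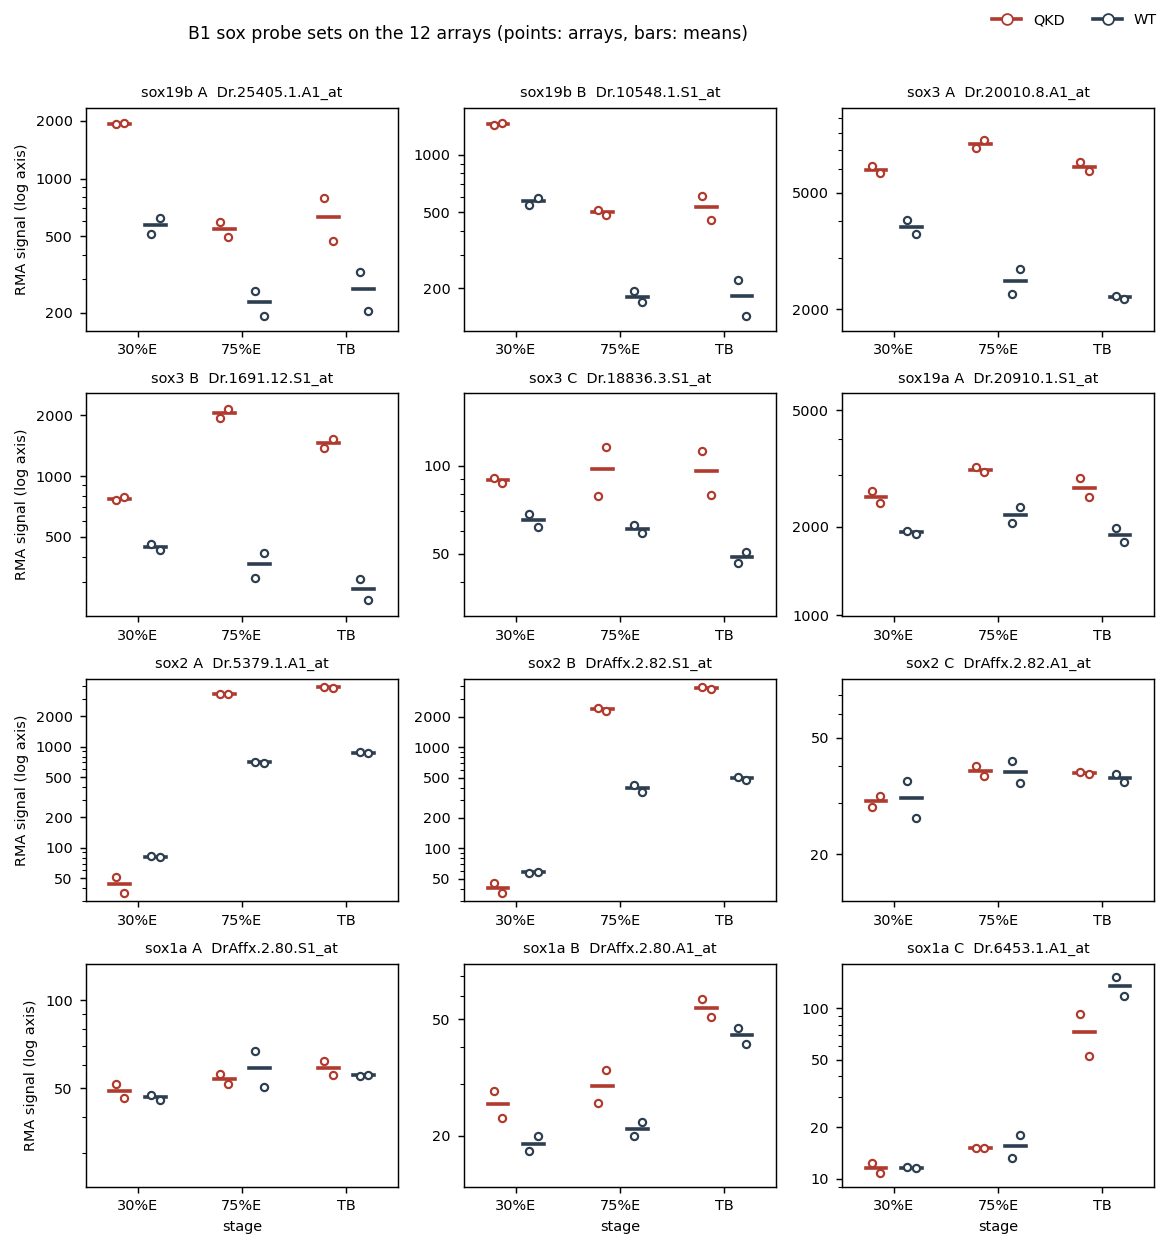
RMA signal (log axis) of the 12 B1 *sox* probe sets on the 12 arrays, by stage, with QKD embryos in red to the left of WT embryos in dark grey. Points are single arrays and bars their means, n = 2. QKD arrays lie above both WT arrays at every stage on all 6 probe sets of *sox19b*, *sox3* and *sox19a*, below them at 30%E and above them later on *sox2* A and B, and overlap them throughout on *sox2* C and *sox1a* A.

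The maternal member *sox19b* was highest at 30%E in both kinds of embryo. By 30%E zygotic transcription has begun, so that the arrays cannot tell maternal from zygotic *sox19b* RNA. On probe set A, the signal at 30%E was 1923 and 1944 in QKD embryos, against 516 and 625 in WT embryos. At 75%E it was 595 and 494 in QKD embryos, against 260 and 193 in WT embryos. At TB it was 797 and 472 in QKD embryos, against 326 and 203 in WT embryos. The QKD and WT arrays did not overlap at any stage, and the 2 replicates lay farthest apart at TB, in QKD and WT embryos alike. On probe set B, the signal was 1424 and 1462 in QKD embryos at 30%E, against 546 and 595 in WT embryos. At 75%E this probe set gave 514 and 486 in QKD embryos, against 193 and 169 in WT embryos, and at TB 612 and 457 in QKD embryos, against 222 and 144 in WT embryos. Both probe sets thus placed the QKD arrays above the WT arrays throughout.

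In WT embryos, *sox19b* fell by 1.35 between 30%E and 75%E on the log2 scale on probe set A (SE 0.26, adjusted p = 0.000902) and by 1.66 on probe set B (SE 0.19, adjusted p = 1.32e-05). From 75%E to TB the differences were 0.20 (95% interval -0.37 to 0.78) and -0.02 (-0.43 to 0.40), neither of them called. QKD embryos exceeded WT embryos by 1.77, 1.28 and 1.25 on probe set A over the 3 stages in turn (SE 0.26, adjusted p = 0.00157, 0.0117 and 0.0148) and by 1.34, 1.47 and 1.57 on probe set B (SE 0.19, adjusted p = 0.00113, 0.000672 and 0.000481). The excess was thus present at all 3 stages, while the level itself dropped after 30%E. In the order of the 6 groups on probe set A, QKD 30%E came first (1934 ± 15.1, SD, n = 2). QKD TB (635 ± 230), WT 30%E (571 ± 76.8) and QKD 75%E (545 ± 71.2) followed and did not differ beyond their spread, and WT TB (265 ± 86.7) and WT 75%E (226 ± 47.5) came last and did not differ from each other either. Leaving out QKD 75%E replicate 1 or WT 75%E replicate 2 ended the 75%E call of probe set A (adjusted p = 0.0933 and 0.077), and leaving out QKD TB replicate 1 or WT TB replicate 2 ended its TB call (adjusted p = 0.132 each). Probe set B kept its 3 calls whichever of the 12 arrays was left out.

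*sox3*, which the embryo expresses from the onset of its own transcription, was called lower in WT embryos after 30%E on probe set A alone. Its signal in QKD embryos stayed high. On probe set A, the signal at 30%E was 6167 and 5826 in QKD embryos, against 4041 and 3622 in WT embryos. At 75%E it was 7089 and 7548 in QKD embryos, against 2250 and 2735 in WT embryos. At TB it was 6365 and 5911 in QKD embryos, against 2226 and 2173 in WT embryos. WT embryos lost signal after 30%E, QKD embryos did not, and the arrays of the 2 kinds were apart at each stage. The second probe set, B, gave 764 and 785 in QKD embryos at 30%E, against 464 and 431 in WT embryos. It gave 1940 and 2137 in QKD embryos at 75%E, against 314 and 418 in WT embryos, and 1370 and 1530 in QKD embryos at TB, against 309 and 244 in WT embryos. On this probe set too, QKD arrays lay above WT arrays at each stage. The dimmest, probe set C, lay between 78.7 and 116 in all QKD embryos, against 46.7 to 68.6 in all WT embryos.

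In WT embryos *sox3* fell by 0.63 between 30%E and 75%E on probe set A (SE 0.12, adjusted p = 0.000593). The other probe sets gave -0.30 and -0.10 over this interval and were not called (adjusted p = 0.108 and 0.687). In QKD minus WT, probe set A gave 0.65, 1.56 and 1.48 over the 3 stages (SE 0.12, adjusted p = 0.00447, 1.27e-05 and 2.15e-05). Probe set B gave 0.79, 2.49 and 2.40 (SE 0.15, adjusted p = 0.00705, 3.19e-06 and 4.29e-06), that is a ratio of 5.62 at 75%E. Probe set C gave 0.46, 0.65 and 0.95 and was called at TB alone (SE 0.19, adjusted p = 0.212, 0.0563 and 0.0105), with an adjusted p of 0.0265 at 75%E once same-numbered arrays of a stage were paired. By group means on probe set A, QKD 75%E was highest (7319 ± 325, SD, n = 2), QKD TB (6138 ± 320) and QKD 30%E (5997 ± 241) did not differ beyond their spread, and WT 30%E (3831 ± 297) stood above WT 75%E (2492 ± 343) and WT TB (2199 ± 37.2), which again did not differ beyond theirs. Leaving out QKD 30%E replicate 2 or WT 30%E replicate 2 ended the 30%E call of probe set B (adjusted p = 0.0624 and 0.0579), and leaving out QKD TB replicate 1 or WT TB replicate 1 ended the TB call of probe set C (adjusted p = 0.102 and 0.0821).

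*sox19a*, the other early zygotic member, was not called between the WT stages and was called higher in QKD embryos at 75%E and TB. Its only probe set gave 2660 and 2409 in QKD embryos at 30%E, against 1939 and 1892 in WT embryos. At 75%E it gave 3192 and 3070 in QKD embryos, against 2058 and 2340 in WT embryos. At TB it gave 2926 and 2522 in QKD embryos, against 1985 and 1775 in WT embryos. The QKD arrays were above the WT arrays at each stage. The difference was 0.40 at 30%E (SE 0.12, adjusted p = 0.0576), which was not called, 0.51 at 75%E (adjusted p = 0.0192) and 0.53 at TB (adjusted p = 0.0172), or ratios of 1.32, 1.43 and 1.45. Pairing same-numbered arrays of a stage gave an adjusted p of 0.0176 at 30%E. Between WT stages the differences were 0.20 at 75%E against 30%E (95% interval -0.06 to 0.45) and -0.23 at TB against 75%E (-0.48 to 0.03), and neighbours in the order of the 6 groups did not differ beyond their spread anywhere from QKD 75%E (3131 ± 86.3, SD, n = 2) to WT TB (1880 ± 149). The call at 75%E did not survive leaving out 1 of the QKD 75%E arrays (adjusted p = 0.111 for replicate 1 and 0.0796 for replicate 2) or WT 75%E replicate 1 (adjusted p = 0.0891), and leaving out QKD TB replicate 1 or WT TB replicate 2 ended that at TB (adjusted p = 0.148 and 0.136).

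*sox2*, the member that comes on last among the targeted genes, was the one whose QKD minus WT difference was called in both directions. On probe set A, the signal at 30%E was 51.5 and 35.5 in QKD embryos, against 82.2 and 82 in WT embryos. At 75%E it was 3328 and 3347 in QKD embryos, against 705 and 697 in WT embryos. At TB it was 3950 and 3805 in QKD embryos, against 880 and 877 in WT embryos. QKD embryos thus started below WT embryos and ended far above them, with no overlap of arrays at any stage. Probe set B gave 45.4 and 35.9 in QKD embryos at 30%E, against 56.9 and 59 in WT embryos. It gave 2466 and 2279 in QKD embryos at 75%E, against 425 and 364 in WT embryos, and 3993 and 3793 in QKD embryos at TB, against 512 and 478 in WT embryos. From its lowest to its highest array the signal spanned a ratio of 111 on each of these probe sets. The third, probe set C, stayed between 26.5 and 41.5 on all 12 arrays, and its QKD and WT arrays overlapped at each stage.

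In WT embryos, *sox2* rose between 30%E and 75%E by 3.09 on probe set A (SE 0.14, adjusted p = 1.27e-08), a ratio of 8.54, and by 2.76 on probe set B (SE 0.13, adjusted p = 1.22e-08). From 75%E to TB both gave 0.33 (adjusted p = 0.118 and 0.077), which was not called. At 30%E, QKD minus WT was -0.94 on probe set A (SE 0.14, adjusted p = 0.00182) and -0.52 on probe set B (SE 0.13, adjusted p = 0.027). These signals of 35.5 to 82.2 lay above the lower quartile of the arrays and around or below their median. At 75%E and TB, probe set A gave 2.25 and 2.14 (adjusted p = 4.51e-06 and 7.31e-06), or ratios of 4.76 and 4.41. Probe set B gave 2.59 and 2.98 (adjusted p = 6.32e-07 and 2.57e-07), or ratios of 6.03 and 7.87. On probe set A the groups stood in the order QKD TB (3878 ± 103, SD, n = 2), QKD 75%E (3337 ± 13.7), WT TB (879 ± 1.91), WT 75%E (701 ± 5.45), WT 30%E (82.1 ± 0.132) and QKD 30%E (43.5 ± 11.3), in which the first 2 did not differ beyond their spread and every later neighbour did. The lower value at 30%E held on probe set A whichever array was left out (adjusted p = 0.000232 to 0.0189), whereas on probe set B leaving out QKD 30%E replicate 2 or either WT 30%E array ended the call (adjusted p = 0.275, 0.113 and 0.138).

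*sox1a*, a gene of the later neural tube and lens that was not targeted, was read differently by its 3 probe sets. Probe set C gave 92.2 and 52.8 in QKD embryos at TB, against 152 and 118 in WT embryos. At 30%E and 75%E its signals were 10.8 to 15.2 in QKD embryos, against 11.5 to 18 in WT embryos, all under the lower quartile of their arrays. The gene was thus near the floor of the array before TB on this probe set, and at TB the QKD arrays lay below the WT arrays. Probe set B gave 58.5 and 50.7 in QKD embryos at TB, against 46.8 and 41.1 in WT embryos. At 30%E it gave 28.3 and 23 in QKD embryos, against 17.7 and 19.9 in WT embryos, and at 75%E 25.8 and 33.4 in QKD embryos, against 20 and 22.3 in WT embryos. Here the QKD arrays lay above the WT arrays at every stage. Probe set A, the brightest of the 3 on average, stayed between 45.8 and 67.2 on all 12 arrays, and QKD and WT arrays overlapped at each stage.

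In WT embryos, *sox1a* rose from 75%E to TB by 3.11 on probe set C (SE 0.23, adjusted p = 4.77e-06) and by 1.05 on probe set B (SE 0.15, adjusted p = 0.000461). The WT signals of probe set C at 75%E were under the lower quartile of their arrays, so that the size of its rise is uncertain. Probe set A gave -0.07 (adjusted p = 0.743). At TB, QKD minus WT was -0.94 on probe set C (SE 0.23, adjusted p = 0.0343) and 0.31 on probe set B (SE 0.15, adjusted p = 0.328). Probe set B also gave 0.44 and 0.47 at 30%E and 75%E without a call (adjusted p = 0.124 and 0.0886), and pairing same-numbered arrays of a stage gave an adjusted p of 0.0326 and 0.0225. The call on probe set C held in 5 of the 12 fits that left out 1 array. It was lost without QKD TB replicate 2, either QKD 75%E replicate, either WT TB replicate or either WT 30%E replicate, with adjusted p = 0.0519 to 0.224 and differences of -1.12 to -0.54. On this probe set the groups stood in the order WT TB (135 ± 24, SD, n = 2), QKD TB (72.5 ± 27.9), WT 75%E (15.6 ± 3.35), QKD 75%E (15.2 ± 0.0127), WT 30%E (11.6 ± 0.184) and QKD 30%E (11.6 ± 1.14), and the last 4 did not differ beyond their spread from one to the next. Genes listed for an onset around TB in normal embryos were read beside *sox1a*. The list has 6 genes, of which 5 were measured. The summed signal of these, *egr2b*, *pax2a*, *neurog1*, *rx3* and *pax8*, was 571 and 506 in QKD embryos at TB, against 1793 and 1695 in WT embryos at TB and 272 and 409 in WT embryos at 75%E. In WT embryos all 5 were called higher at TB than at 75%E, but 3 of them, *neurog1*, *rx3* and *pax8*, were already called higher at 75%E than at 30%E. Of the 5, 3 were called lower in QKD embryos at TB, *egr2b*, *neurog1* and *rx3*. The study reports expression of all of these, *egr2b* under the name *krox20*, as lost in such embryos, with some *krox20* left in neural crest cells. It also tested *neurog1* for SOX2 binding. At TB, *rx3* gave 163 in QKD embryos against 896 in WT embryos, and *neurog1* gave 29.7 against 385. *pax2a* gave 180 against 227 (WT 75%E 25) and *pax8* 139 against 179 (WT 75%E 65.8), and neither was called at TB. The sum is therefore not a readout of stage alone. The paper reports that epiboly was delayed in QKD embryos. Whether samples were collected by age or by stage is not given in the sources used here. The part of a delay in the difference of *sox1a*, or of the other members, was not tested.

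**Figure D3:**
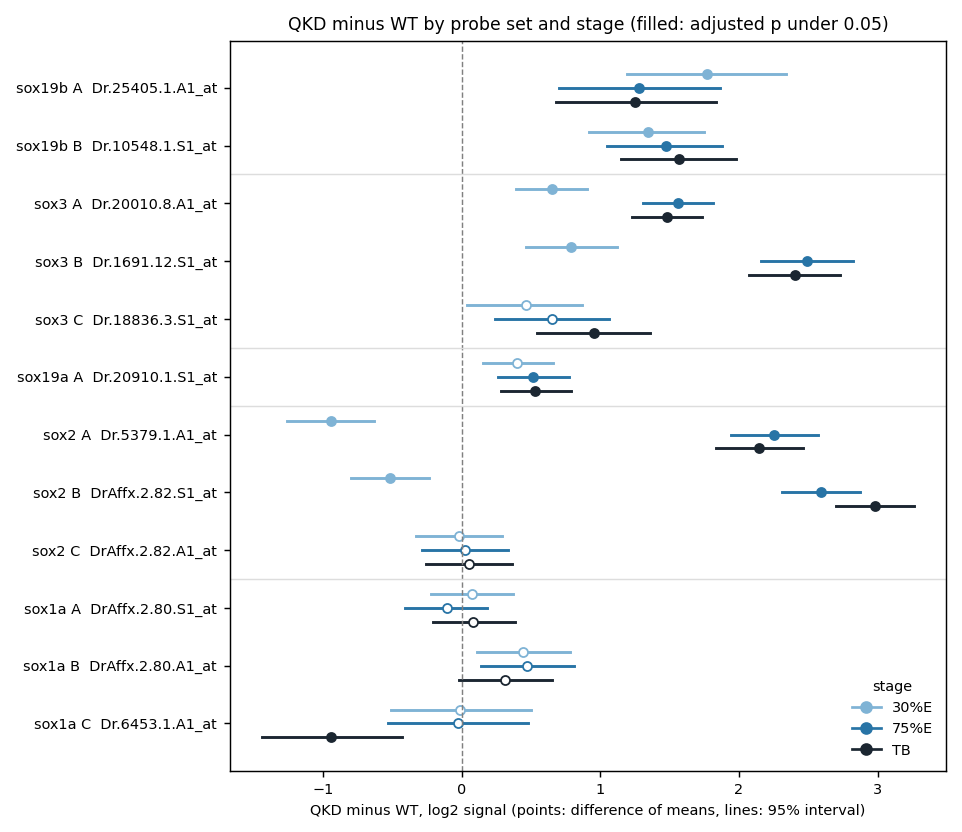
QKD minus WT in log2 signal for each of the 12 probe sets at 30%E, 75%E and TB, grouped by gene from the maternal member at the top to the untargeted one at the bottom. Points are differences of the means of 2 and 2 arrays, lines their 95% intervals from limma, and filled points are called. The points of *sox2* A and B at 30%E lie at -0.94 and -0.52 and those at 75%E and TB between 2.14 and 2.98, while the *sox19b* points lie between 1.25 and 1.77 at all stages.

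Whether the QKD minus WT difference itself changed between stages was tested as a contrast of the same fit. From 30%E to 75%E it rose on probe sets A and B of *sox2* and *sox3*. The change was called higher for 4 of the 12 member probe sets and lower for 0 in limma, beside 2.08% and 2.48% of all probe sets. For *sox2* it was 3.19 on probe set A (SE 0.20) and 3.11 on probe set B (SE 0.18), each with adjusted p = 2.19e-05. For *sox3* it was 0.91 on probe set A (SE 0.16, adjusted p = 0.00993) and 1.70 on probe set B (SE 0.21, adjusted p = 0.00141), the first of which was not called once QKD 30%E replicate 2 or WT 30%E replicate 1 was left out (adjusted p = 0.0505 and 0.0517). Probe set C of each gene was not called, with 0.03 for *sox2* (adjusted p = 0.966) and 0.20 for *sox3* (adjusted p = 0.805). For *sox19a* it was 0.11 (95% interval -0.25 to 0.47). For *sox19b* it was -0.49 (95% interval -1.31 to 0.33) and 0.13 (-0.46 to 0.72), on its probe sets A and B, and with same-numbered arrays paired the first of these had an adjusted p of 0.0478. From 75%E to TB, limma called 0 members higher and 0 lower, beside 0.213% and 0.464% of all probe sets. Before adjustment 1 of the 12 was under 0.05, *sox1a* on probe set C (-0.91, SE 0.33, adjusted p = 0.339), and with same-numbered arrays paired its adjusted p was 0.0349. Between 30%E and 75%E the difference thus widened for *sox3* and changed sign for *sox2* on probe sets A and B, and no further change was called up to TB.

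Probe sets of the same gene were then compared with each other. For each of the 10 pairs, the log2 difference between the 2 probe sets was taken on every array, and its QKD minus WT value was averaged over the stages and tested by an exact permutation test within stages, two-sided, over all arrangements of the labels. The smallest p this exact test allows is 0.00926. Of the 10 pairs, 6 reached it (exact test, adjusted p = 0.0154 over the 10). That test exchanges labels freely within a stage. An alternative, added after the data were seen, exchanged labels only between same-numbered QKD and WT arrays of a stage. There the smallest exact p is 0.0312, the same 6 pairs reached it and 0 of the 10 passed (exact test, adjusted p = 0.0521). That 0 is set by the floor of the alternative and does not show that the probe sets agree. For *sox3*, probe set B exceeded probe set A by 0.66 and probe set C by 1.21, and probe set A exceeded probe set C by 0.54, and all 3 probe sets put QKD embryos higher. For *sox2*, probe set B exceeded probe set A by 0.53. The pairs of *sox2* with probe set C differed by 1.13 and 1.66 and had an exact p = 0.0556 each (adjusted p = 0.0695), where the opposite sign at 30%E entered the average. At TB alone the distances of these pairs were 2.09 and 2.92, given here without a test. For *sox1a*, probe set B exceeded probe set C by 0.73 and probe set A by 0.40, and the pair of probe set A and probe set C differed by 0.34 (exact p = 0.194, adjusted p = 0.216). The *sox19b* pair differed by -0.02 (exact p = 0.843), and its values ran from -0.08 to 0.03 when 1 array was left out. It gave 0.43 at 30%E and -0.19 and -0.31 at 75%E and TB. Probe sequences were not analysed here, and the cause of the differences between probe sets of *sox2*, *sox3* and *sox1a* was not tested.

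**Figure D4:**
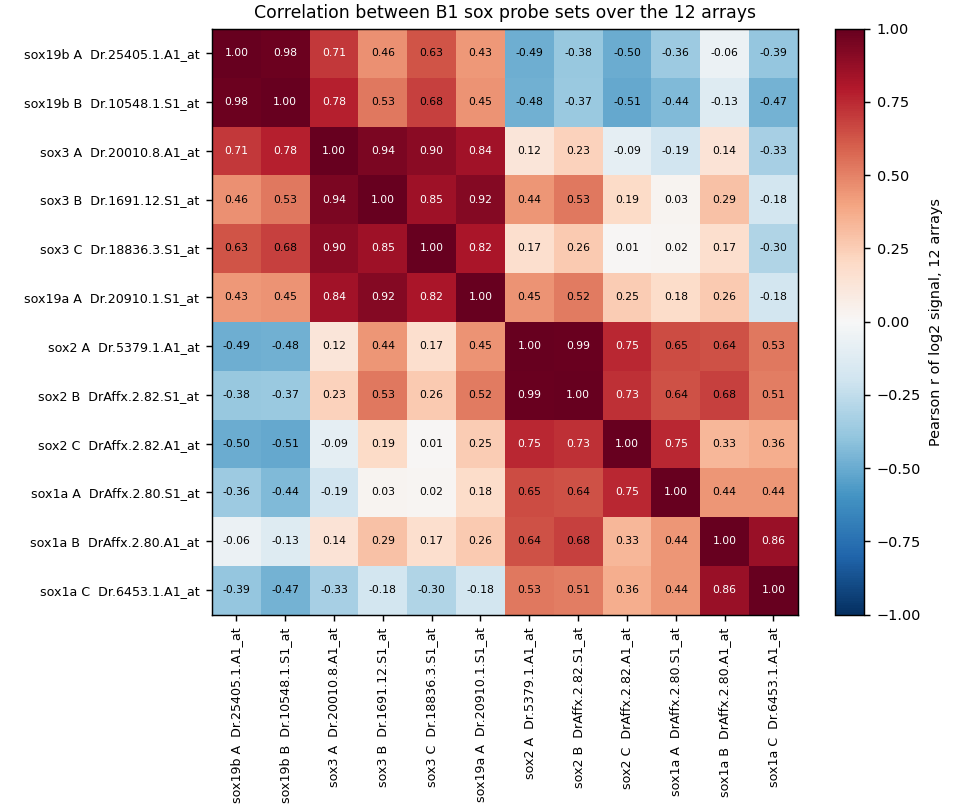
Pearson correlation of log2 signal over the 12 arrays between the 12 B1 *sox* probe sets. The 2 *sox19b* probe sets correlate at 0.98 and 2 of the *sox2* probe sets at 0.99, whereas the *sox1a* probe sets correlate at 0.44 to 0.86. *sox3* and *sox19a* correlate at 0.82 to 0.92.

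Correlations between members are given as a description over 12 arrays that share stages and treatment. *sox3* and *sox19a* correlated at 0.84, 0.92 and 0.82 on the 3 *sox3* probe sets. *sox19b* correlated with *sox3* at 0.46 to 0.78 and with the 2 responding probe sets of *sox2* at -0.49 to -0.37. With these *sox2* probe sets, *sox3* correlated at 0.12 and 0.23 on its probe set A. On B the values were 0.44 and 0.53, and on C 0.17 and 0.26. *sox19a* correlated with the same *sox2* probe sets at 0.45 and 0.52, and *sox1a* A and B at 0.64 to 0.68. *sox1a* on probe set C correlated with those of *sox2* at 0.53 and 0.51, and with *sox3* at -0.33 to -0.18. Within a gene, r was 0.98 for *sox19b*, 0.85 to 0.94 for *sox3*, 0.73 to 0.99 for *sox2* and 0.44 to 0.86 for *sox1a*. A high r did not mean equal size, since the *sox3* pair at 0.94 differed by 0.66 in its QKD minus WT value.

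Other genes of the pathway were read from lists, with the brightest probe set per gene. The lists were written with earlier results of these arrays known, and the median of all probe sets beside which they stand was -0.03, -0.02 and 0.01 at 30%E, 75%E and TB. Of the partners and POU factors, 10 of 13 were measured. At 30%E limma called 0 higher and 0 lower (median 0.02), at 75%E 3 higher and 2 lower (median 0.07) and at TB 0 higher and 2 lower (median 0.12). *prdm14*, a chromatin factor known from mouse pluripotent cells, had a mean signal of 81.4 in QKD embryos at 75%E, against 392 in WT embryos (difference -2.29, SE 0.19, adjusted p = 3.58e-05). *pou3f1*, a POU factor of the neural ectoderm, gave 91.4 in QKD embryos at 75%E, against 27.7 in WT embryos (1.73, adjusted p = 8.03e-05), and *pou2f1b*, a broadly expressed POU factor, gave 1490 in QKD embryos, against 604 in WT embryos (1.30, adjusted p = 8.98e-05). *pou5f3*, the fish relative of mammalian Oct4 and a known SOX2 partner, was singled out after its values were seen. It gave 7630, 5790 and 1660 in QKD embryos at 30%E, 75%E and TB, against 7520, 6010 and 1580 in WT embryos (0.02, -0.06 and 0.10, adjusted p = 0.975, 0.897 and 0.863).

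The genes that the study tested for SOX2 binding were called lower in QKD embryos at 75%E and TB, where the transcripts of *sox2* and *sox3* were called higher. Of 6 listed, 5 were measured. The other, *nes*, was not measured, and the study used a *nestin* enhancer as a reporter without testing it for binding. Of the 5 measured, 2 were called lower at 30%E (median 0.07), 5 at 75%E (median -1.67) and 5 at TB (median -2.72). In limma, 0 were called higher at any stage. The study chose them on embryos of this kind, so their direction is no independent evidence. *her3*, a Hairy-related repressor of the neural plate, gave 16.5 in QKD embryos at 75%E, against 531 in WT embryos, and 30.3 in QKD embryos at TB, against 910 in WT embryos (-4.97 and -4.91, adjusted p = 6.71e-08 and 5.16e-08). *hesx1*, a homeobox repressor of the forebrain, gave 19 in QKD embryos at 75%E, against 358 in WT embryos (-4.25, adjusted p = 7.46e-07). The QKD signals of *her3* and *hesx1* at 75%E were under the lower quartile of the arrays, so that the sizes of these differences are uncertain. *neurog1*, a proneural factor, gave 29.7 in QKD embryos at TB, against 385 in WT embryos (-3.74, adjusted p = 1.13e-06).

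Of the signals known to set the extent of the neural plate, all 13 were measured. At 30%E 1 was called higher and 4 lower (median -0.08), at 75%E 1 and 2 (median -0.10), and at TB 1 and 3 (median -0.13). *fgf8a*, a ligand that promotes neural fate, gave 115 in QKD embryos at 30%E, against 310 in WT embryos (-1.43, adjusted p = 1.07e-05). *bmp7a*, a ligand that favours epidermis, gave 129 in QKD embryos at 30%E, against 393 in WT embryos (-1.62, adjusted p = 9.49e-05). *chrd*, which binds and blocks Bmp ligands, gave 193 in QKD embryos at TB, against 675 in WT embryos (-1.82, adjusted p = 1.96e-05).

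Markers of the germ layers were summed on each array beside the member values. For 16 of 17 neural plate markers the sum at 30%E was 4527 and 5047 in QKD embryos, against 5043 and 5261 in WT embryos, and at 75%E and TB it was 9563 to 11298 in QKD embryos, against 11447 to 13463 in WT embryos. In QKD minus WT, 2, 0 and 0 of the 16 were called higher and 3, 7 and 6 lower at 30%E, 75%E and TB, and 1 marker at most was under the lower quartile of an array. For 15 non-neural ectoderm markers the sum at 30%E was 8440 and 6838 in QKD embryos, against 11631 and 10428 in WT embryos. At 75%E and TB it was 18294 to 20777 in QKD embryos, against 23777 to 26232 in WT embryos, and 7, 9 and 10 of the 15 were called lower at 30%E, 75%E and TB and 0 higher in limma. For 13 mesoderm and endoderm markers the sum at 30%E was 8330 and 7414 in QKD embryos, against 10565 and 9590 in WT embryos. At 75%E it was 9167 and 9739 in QKD embryos, against 8870 and 9580 in WT embryos, which overlapped, and at TB it was 7189 and 7322 in QKD embryos, against 5593 and 6113 in WT embryos, which did not. In QKD minus WT, 1, 2 and 1 were called higher and 5, 0 and 0 lower at 30%E, 75%E and TB. At most 3 of these 13 and 0 of the 15 non-neural markers were under the lower quartile of an array. The neural and the non-neural sum at 75%E and TB were thus both lower in QKD embryos, where the 4 targeted B1 *sox* genes were higher. The mesoderm and endoderm sum was higher in QKD embryos at TB. Bright probe sets weigh most in such sums. The brightest non-neural markers at 75%E, *krt4* and *krt5*, gave 6990 and 4680 in QKD embryos, against 6760 and 4820 in WT embryos, and were not called. Among the neural markers at 75%E, *zic1* and *rx3* were called lower (-2.61 and -1.79), and *zic2b* and *otx2b* were not called (0.13 and -0.29). The study reports that the domains of *zic2b*, *otx2* and the targeted genes were ventrally expanded at this stage. It also reports loss of *zic1* and *rx3* expression in QKD embryos. A marker sum therefore does not measure the extent of a tissue. The part of tissue makeup in the B1 *sox* differences was not tested.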

How the data were processed

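Total RNA of whole zebrafish embryos was hybridised to Affymetrix arrays, 12 in all, with 2 biological replicates for each of the 6 groups. The authors normalised the arrays together by RMA (version not given in the sources used here), and the deposited values are linear intensities per probe set. Log2 of these intensities was fitted with limma 3.58.1 (lmFit, eBayes) in R 4.3.3 as 6 group means over all 12 arrays. This left 6 residual degrees of freedom, to which 5.11 came from the prior, and p-values were adjusted over 15502 probe sets after Benjamini and Hochberg. The 115 control probe sets were left out. Genes were named from the platform annotation: 10795 probe sets had 1 symbol, 135 several and 4572 none. Pairs of probe sets were tested by an exact permutation test within stages. The arrays hold no counts, so that their number limits the precision.

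The labels number the replicates but do not say that a number marks a shared day. Deviations of same-numbered QKD and WT arrays from their group means correlated at 0.615, 0.443 and 0.488 at 30%E, 75%E and TB, against -0.0835 to 0.183 between stages, and a replicate block within each stage was therefore fitted beside the model without it. Other alternatives were a second quantile normalisation, median centring, dropping dim probe sets, a variance trend, each stage alone, the methods' t-test (Student's, as the study's gene tables name it), 1 row per gene and leaving out each array. The script was tested on simulated data. The members and lists were chosen with earlier results of these data known. The text names every member probe set, the 3 genes most like each member, and of each list up to 3 called genes with the largest QKD minus WT difference at any stage.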

Additional observations from a re-analysis of the deposited data

Results flagged for a closer look

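The QKD minus WT difference of *sox2* and *sox3* changed between 30%E and 75%E on probe sets A and B, by the test of that change in limma. Probe set C was not called for either gene (limma adjusted p = 0.966 for *sox2* and 0.805 for *sox3*). On the log2 scale the change was 3.19 (95% interval 2.75 to 3.64, adjusted p = 2.19e-05) and 3.11 (2.72 to 3.51, adjusted p = 2.19e-05) on *sox2* probe sets A and B. It was 0.91 (0.55 to 1.27, adjusted p = 0.00993) and 1.70 (1.23 to 2.17, adjusted p = 0.00141) on *sox3* probe sets A and B. With 1 array left out, the change on *sox3* A ran from 0.77 to 1.05, and its call did not hold throughout. For *sox2* all 4 QKD signals at 30%E on probe sets A and B lay below the WT signals, and all 4 at 75%E above them. The cause was not tested.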

How the results depend on the processing

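Each single value called in the main fit was refitted under the limma alternatives that test single probe sets. Of these refits, 703 kept their direction and their side of the threshold, 30 kept their direction and lost the call, and 0 changed sign. Only a new normalisation or a left-out array of the groups compared can move the difference itself, so that the count of signs says little. Calls gained are not in these counts, and neither are the methods' t-test, 1 row per gene and the stricter thresholds. The calls of *sox1a* B and C are not counted as lost where dim probe sets were dropped, since these probe sets then have no value. Limma called 6, 7 and 9 of the 12 member probe sets in QKD against WT at 30%E, 75%E and TB, 5 and 2 over the WT intervals, and 4 and 0 for the change of the difference. With 1 array left out these counts ran from 4 to 7, 6 to 8, 6 to 9, 5 to 8, 2 to 3, 3 to 4 and 0 to 0, and the 8 in the first WT interval came without WT 75%E replicate 2. With a ratio over 2 required, 2 remained called at 30%E, and at an adjusted p under 0.01, 5 at TB. Dropping dim probe sets left 0 called between WT 75%E and TB, because the 2 *sox1a* probe sets that were called are among those dropped.

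The replicate block within each stage gave 8, 9 and 9 calls in QKD against WT, and 5 and 1 for the change of the difference. Over all probe sets the calls in QKD against WT went from 1249, 1301 and 986 to 2210, 2622 and 2109. Those for the change of the difference went from 707 and 105 to 1875 and 443, so added calls were not particular to the members. The block ended no member call and added those of *sox1a*, *sox3*, *sox19a* and *sox19b* given beside their values. The additive replicate block gave 6 and 3 calls over the WT intervals. For the agreement between probe sets of a gene, a replicate block chosen after seeing the data exchanged labels only between same-numbered arrays of a stage. It left 0 of the 10 pairs past the threshold, against 6 without it. The same 6 pairs stood at the smallest p it allows, so the 0 is set by that floor and does not show agreement.

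With 1 row per gene, 3, 4 and 4 of the 5 genes were called in QKD against WT, 3 and 1 over the WT intervals and 2 for the first change of the difference. The methods' t-test called 0 members at each of the 3 stages after Benjamini-Hochberg on linear or log2 signal. At an unadjusted p under 0.05 it called 7, 7 and 4 on linear and 6, 7 and 4 on log2 signal. Over all probe sets it also called 0 at each stage after adjustment, and 1788 to 2295 unadjusted. The 0 is therefore not particular to the members. Over the first WT interval the t-test called 2 members on linear and 3 on log2 signal after adjustment, and over the second 0 on either, with 3 unadjusted. Over all probe sets it called 2426 and 2712 in the first interval after adjustment, and 1 in the second on either scale. That test takes its spread from 2 arrays a group. Fits of each stage alone called 5, 6 and 6.

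Signals of *sox1a* C before TB and of *sox1a* B in WT embryos before TB lay under the lower quartile of their arrays, where a fold change is least certain. Leaving out 1 array ended 2 of the 6 calls at 30%E, 2 of the 7 at 75%E and 4 of the 9 at TB at least once, and 0 of the 5 and 2 limma calls over the WT intervals.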

Other observations

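Of 21 other *sox* genes listed, 13 were measured. In QKD against WT embryos, 1, 3 and 1 were called higher and 1, 0 and 2 lower at 30%E, 75%E and TB, with medians of 0.08, 0.02 and -0.07. *sox4a*, a SoxC gene, gave 75.1 in QKD embryos at 75%E, against 24.5 in WT embryos (1.63 on the log2 scale, adjusted p = 0.00178). *sox21a*, a SoxB2 gene whose relatives act as repressors, gave 36.8 in QKD embryos at TB, against 87.7 in WT embryos (-1.25, adjusted p = 0.000161). *sox11a*, a SoxC gene, gave 826 in QKD embryos at 30%E, against 1810 in WT embryos (-1.13, adjusted p = 0.00063).

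The genes most like each member were taken by Pearson correlation of log2 signal with its probe set A over the 12 arrays, among 5914 genes. *ccdc25*, *pdcd4a* and *fn1a*, the gene of fibronectin, followed *sox2* at 0.983, 0.98 and 0.979, and *fn1a* had mean signals of 51.7, 200 and 223 in QKD embryos over the stages, against 50, 133 and 119 in WT embryos. *pdzd11*, *upf3b* and *peli1b* followed *sox3* at 0.976, 0.918 and 0.909. For *pdzd11* the means were 301, 327 and 326 in QKD embryos, against 277, 225 and 206 in WT embryos, a narrower range than that of *sox3*. *vps4b*, *setd4* and *naa60* followed *sox19b* at 0.949, 0.942 and 0.94, and *ier5l*, *arrdc2* and *prpf3* followed *sox19a* at 0.932, 0.932 and 0.904. *ap3s2*, *rex1bd* and *pdcl3* followed *sox1a* at 0.94, 0.871 and 0.868, on the probe set that hardly varied. The arrays share stages and treatment, so these values are a description.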
